A study of Danio rerio with 18 samples.

Results

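The transcriptome of zebrafish heart tissue 9 days post amputation (dpa) of the ventricular apex was set against that at 0 dpa. The members are the 9012 gene symbols, of 15268 in the deposited table, whose mean FPKM was at least 3 in at least 1 of these 2 groups. FPKM is the number of sequenced fragments scaled to the length of the transcript and to the size of the library. Left out were 3 symbols listed above 1000 FPKM in one library and at 0 in another: ba1, hbaa1 and mb, 2 haemoglobin genes and myoglobin. Of the members nearest the minimum, the higher of the group means was 3.005 FPKM for phex and rabgef1l, and of the symbols just below it, 2.996 for aacs and neo1a.

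The study profiled RNA and 2 marks of histone H3 lysine 9, acetylation and trimethylation, during heart regeneration. RNA came from 2 libraries at each of 0, 6 and 9 dpa. All fish were of the TAB line, a hybrid of the AB and Tubingen lines. All had the apex of the ventricle resected and were kept on a timed light and dark cycle, and the heart tissue was taken on the day named. The 0 dpa group is therefore the start of the time course, and the time between resection and collection on that day is not given. No heart group is labelled as uninjured. The label of the 0 dpa group, regenerative cardiac cells, is the same as that of the later groups. The hour of dissection, the age and sex of the fish and the number of hearts in a library are not given in the sources used here. The libraries are described as biological replicates, and p-values measure only the spread between these samples.

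The zebrafish heart restores its ventricle after amputation. Wound clearance by leukocytes, activation of the epicardium that covers the heart and of the endocardium that lines it, deposition of a provisional matrix and division of existing cardiomyocytes overlap in the days and weeks that follow. Zebrafish heart cells, like those of most tissues of this species, also carry a circadian clock that light can set directly: the activators Clock and Arntl (Bmal) drive the genes of their own repressors, the Per, Cry and Nr1d (Rev-erb) proteins, so that activator and repressor transcripts peak at opposite times of day. Chaperones of the heat shock family rise with protein damage and also vary with time of day in many tissues.

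The tissue carried the markers of heart. All 25 working myocardium genes in the table were above 0 in each of the 6 libraries, and their summed level was 114640 and 54218 FPKM at 0 dpa and 83248 and 64624 at 9 dpa. The sarcomere gene myl7, a myosin light chain, stood at 30405 and 17283 FPKM at 0 dpa and 18843 and 17816 at 9 dpa. The epicardial gene tcf21 was at 41.5 and 26.7 FPKM at 0 dpa and 42.5 and 67.6 at 9 dpa. Neuronal elavl3 was listed at 0 in both libraries at 0 dpa and at 0 and 0.139 FPKM at 9 dpa, and sox10, of neural crest and glia, did not exceed 0.762 FPKM in any library. The 31 neuron and glia genes in the table summed to 87.1 and 73.6 FPKM at 0 dpa and 115 and 104 at 9 dpa. Of the 5 tested, 1 was called higher. The bulk tissue also held blood, leukocytes and connective tissue, and in such samples fewer cells of a type and less RNA per cell cannot be told apart.

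The replicates at 0 dpa differed more than those at 9 dpa. The log2 ratio of replicate 2 to replicate 1 had a standard deviation over genes of 0.8 for the 0 dpa pair, 0.586 for the 6 dpa pair and 0.468 for the 9 dpa pair. Replicate 2 at 0 dpa was higher than replicate 1 in 35 of 36 macrophage and neutrophil genes and in 47 of 50 genes of mitosis, and lower in all 24 working myocardium genes tested. Genes called below kept their call when each of the 6 libraries was left out in turn, unless a library without which a gene was not called is named, with the log2 fold change without it in brackets. The summed FPKM lay between 803421 and 1330111 per library, and the number of fragments behind a value could not be recovered from the table.

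Of the 9012 members, 1129 (12.5%) passed the 3 criteria of the study, an unadjusted P under 0.05, a fold change of at least 1.5 and the FPKM minimum, in limma's moderated test on log2(FPKM + 1). 615 of them (6.82%) were higher and 514 (5.7%) lower at 9 dpa. The counts of called list members below are to be read beside these shares. The lists were chosen with earlier results of these data known, so a share above these does not test a list. A P under 0.05 was reached by 1150 members, where 450.6 would be reached with no change. Only 31 members (0.344%) also passed with the Benjamini-Hochberg adjusted p, 13 higher and 18 lower. The 2 libraries at 9 dpa lay both above or both below those at 0 dpa for 1825 (20.3%) and 1880 (20.9%) members, and among the calls this held for 1127. The 2 exceptions were grn2, a granulin, and pigr, the receptor that carries polymeric immunoglobulin across epithelia. Neither kept its call without each of the 6 libraries in turn. Large changes were more often decreases: 41 genes were called lower and 26 higher with a fold change of at least 4, and 15 and 5 with at least 8. Fold changes are on the scale of log2(FPKM + 1) and understate the change of low genes. Some called genes, such as arntl1b, rorcb, nfil3-2 and asb15b, reached the FPKM minimum only through the group where they were high.

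How many genes passed depended on the library left out. Without 0 dpa replicate 1, 1870 genes were called and without 0 dpa replicate 2, 1536, of which 774 and 767 were among the 1129. Counted over the 9012 members tested with all libraries, 1027 were higher and 811 lower with 0 dpa replicate 1 left out, and 635 and 895 with 0 dpa replicate 2 left out. Without 9 dpa replicate 1 the number was 722 and without 9 dpa replicate 2 it was 583, each on a single library at 9 dpa. In all, 291 calls, 147 higher and 144 lower, were called without each of the 6 libraries in turn. All 31 genes of the adjusted list were among them. When the haemoglobin genes were removed and each library was brought to the same sum of FPKM, the median log2 fold change of all genes moved from -0.03 to 0.13, and 1016 genes were called higher and 340 lower.

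**Figure D1:**
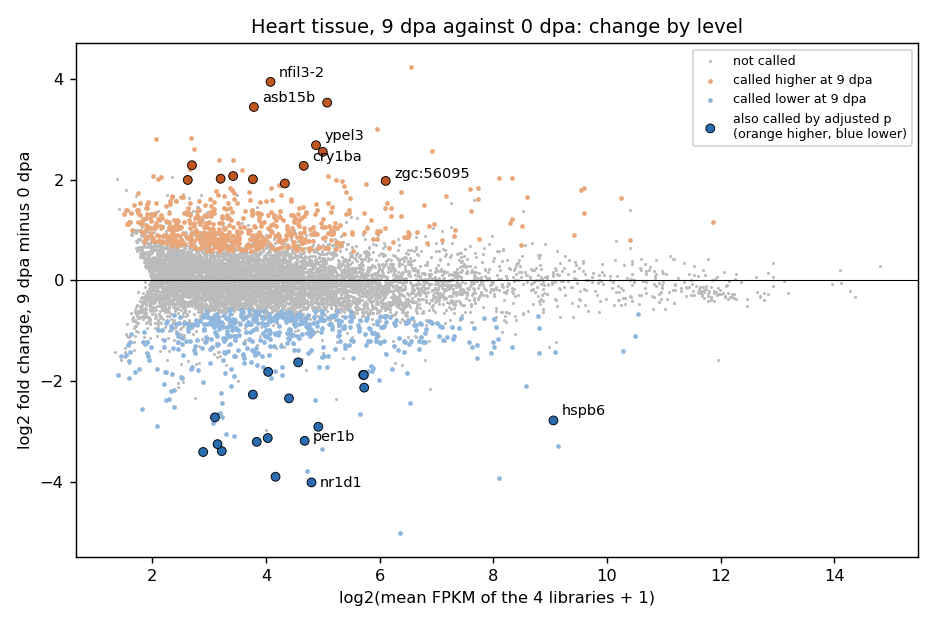
Log2 fold change (9 dpa minus 0 dpa, on the log2(FPKM + 1) scale) of the 9012 members against the log2 of their mean level in the 4 libraries. Grey points were not called, pale orange and pale blue points were called higher and lower by the 3 criteria, and the 31 outlined points also passed with the adjusted p. The outlined genes lie between a log2 fold change of -4.01 (nr1d1) and 3.94 (nfil3-2).

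Genes of the circadian clock made up much of the adjusted list. The activators that passed were higher at 9 dpa and most repressors lower. Of 4 clock activators tested, 2 were higher and 0 lower. Of these, arntl1b reached the FPKM minimum only through its 9 dpa libraries, with a mean of 1.47 FPKM at 0 dpa. Of 17 genes of the repressor list, 11 were lower and 4 higher, so that 15 of 17 were called, beside 12.5% of all members. The median log2 fold change was 1.19 for the activators and -1.63 for the repressors, beside -0.03 for all members. With no FPKM minimum the medians of these 2 lists were 1.4 and -1.54. On the lists of activators, repressors and clock output factors were 12 of the 31 genes of the adjusted list.

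Arntl1a, a Bmal subunit of the activator complex, stood at 3.26 and 2.86 FPKM in the 2 libraries at 0 dpa and 19.5 and 13.2 at 9 dpa. Its paralogue arntl1b was at 1.38 and 1.56 FPKM at 0 dpa and 8.33 and 9.36 at 9 dpa. Both 9 dpa libraries were several times higher than both 0 dpa libraries, with a log2 fold change of 2.07 (SE 0.26, adjusted p = 0.0291) for arntl1a and 1.995 (SE 0.26, adjusted p = 0.0317) for arntl1b. Of the Clock genes, clockb was at 5.88 and 5.54 FPKM at 0 dpa and 7.67 and 7.75 at 9 dpa, without overlap, and was not called. Clocka and arntl2 stayed below the FPKM minimum, clocka at 0.820 and 0.584 FPKM at 0 dpa and 2.47 and 3.004 at 9 dpa and arntl2 at 0.293 and 0.197 FPKM at 0 dpa and 3.32 and 2.63 at 9 dpa. Rorcb, a nuclear receptor of the ROR family that competes with the Rev-erb repressors for the same sites, was at 1.38 and 1.03 FPKM at 0 dpa and 8.83 and 10.7 at 9 dpa. Its 9 dpa libraries were the higher pair, with a log2 fold change of 2.29 (SE 0.27, adjusted p = 0.0284).

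Among the repressors, the Rev-erb genes held the largest decrease. Nr1d1 was at 55.2 and 47.6 FPKM at 0 dpa and 2.01 and 2.49 at 9 dpa, and nr1d2b at 106 and 65.7 FPKM at 0 dpa and 18.6 and 17.9 at 9 dpa. Both were lower in both libraries of 9 dpa, with an adjusted p of 0.00366 and 0.0494. Nr1d2a did not follow, with 119.9 and 94.1 FPKM at 0 dpa and 94.8 and 65.1 at 9 dpa, which overlapped, and 12.4 and 20.5 at 6 dpa. Nr1d4b, of the same family, was called higher, at 0.383 and 0.883 FPKM at 0 dpa and 2.58 and 3.53 at 9 dpa. Its call ended without 0 dpa replicate 1, where the log2 fold change was 1.097 in place of 1.32, without 9 dpa replicate 1 (1.49), and without 9 dpa replicate 2, where its mean fell under the FPKM minimum.

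All 4 period genes were lower at 9 dpa. Per1b stood at 52.3 and 38.2 FPKM at 0 dpa and 4.36 and 3.70 at 9 dpa, a change on the log2 scale of -3.19 (SE 0.26, adjusted p = 0.00828). Per1a fell from 8.23 and 5.66 FPKM to 0.687 and 0.343. Neither pair overlapped. Per3 was at 16.8 and 11.4 FPKM at 0 dpa and 2.65 and 3.79 at 9 dpa, and per2, which light induces in zebrafish, at 43.3 and 32.5 FPKM at 0 dpa and 12.97 and 13.3 at 9 dpa. The log2 fold changes of these 2 genes were -1.83 and -1.45, smaller than that of per1b. Ciarta, a homologue of the mammalian repressor Chrono, was at 27.2 and 29.4 FPKM at 0 dpa and 2.40 and 2.29 at 9 dpa, an adjusted p of 0.00828. The basic helix-loop-helix repressors bhlhe40 and bhlhe41 (Dec1 and Dec2 in mammals) fell by 1.85 and 1.63 on the log2 scale.

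The cryptochromes moved in both directions, and whether each of those on the repressor list represses the clock was not tested. Cry2 stood at 37.7 and 31.0 FPKM at 0 dpa and 6.58 and 5.36 at 9 dpa (log2 fold change -2.34, SE 0.25, adjusted p = 0.02), while cry1ba stood at 7.89 and 7.396 FPKM at 0 dpa and 45.0 and 37.0 at 9 dpa (log2 fold change 2.28, SE 0.26, adjusted p = 0.0246). The 2 genes were thus opposite in which time point was high. Cry1bb was also higher, at 30.3 and 17.098 FPKM at 0 dpa and 67.6 and 50.4 at 9 dpa. Cry1aa was lower by 0.89 on the log2 scale, a call that ended without 0 dpa replicate 1 (-0.60), 9 dpa replicate 1 (-0.998) and 9 dpa replicate 2 (-0.77). Cry4 was higher, with a log2 fold change of 0.98, and was not called without 9 dpa replicate 1 (0.86). Cry5, a photolyase relative that is not on the list, was lower at 9 dpa, with 4.45 and 6.70 FPKM at 0 dpa and 0.717 and 1.11 at 9 dpa.

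The output of the clock runs in part through basic leucine zipper factors, where Dbp and Tef activate and Nfil3 represses the same DNA elements. Nfil3-2 had the largest increase of the adjusted list and stood at 1.19 and 0.946 FPKM at 0 dpa, 13.8 and 31.1 at 6 dpa and, at 9 dpa, 29.6 and 31.9. Nfil3-5 was at 2.83 and 6.44 FPKM at 0 dpa, 20.8 and 43.1 at 6 dpa and, at 9 dpa, 64.6 and 57.0. Both genes were low at 0 dpa and high in both later groups. Nfil3 itself was higher by 1.104 on the log2 scale, and nfil3-6 lower by 0.89, with calls for nfil3-6 that ended without 0 dpa replicate 2 (-0.73), 9 dpa replicate 1 (-0.85) and 9 dpa replicate 2 (-0.94). Dbp and Tef genes were lower. Dbpa was at 18.4 and 9.52 FPKM at 0 dpa and 1.17 and 1.18 at 9 dpa (log2 fold change -2.72, SE 0.36, adjusted p = 0.0323), dbpb at 14.7 and 12.3 FPKM at 0 dpa and 5.77 and 3.37 at 9 dpa and tefa at 97.7 and 71.1 FPKM at 0 dpa and 39.3 and 32.6 at 9 dpa. Tefb was lower by 1.33, and was not called without 9 dpa replicate 1 (-1.06). In all, 3 of 9 factors tested were higher and 5 lower. The hour of dissection is not known for either group, so day after amputation and time of day cannot be told apart for these genes.

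Genes that passed the test on the HSP70, HSP90 and co-chaperone list and on the small heat shock protein list were lower at 9 dpa. Of 25 genes of the HSP70, HSP90 and co-chaperone list, which includes the transcription factor hsf2, 12 were called lower and 0 higher. Of 10 genes of the small heat shock protein list, which includes bag3, 6 were lower and 0 higher. The lists were thus called lower at 48% and 60%, beside 5.7% of all members. Their median log2 fold changes were -0.55 and -0.83. Hsp70l, a stress-inducible HSP70, stood at 25.7 and 23.8 FPKM at 0 dpa and 1.70 and 1.89 at 9 dpa (log2 fold change -3.21, SE 0.28, adjusted p = 0.00915). Hsp70.3 was at 13.2 and 18.8 FPKM at 0 dpa and 0.880 and 0.365 at 9 dpa, and hsp70.2 at 12.03 and 18.1 FPKM at 0 dpa and 0.489 and 0.839 at 9 dpa, with an adjusted p of 0.02 and 0.0284. All 3 inducible genes were at least several times higher in both libraries at 0 dpa. These are near-identical copies, and reads they share may have been split between them. The constitutive hspa8 was the most abundant of the list, at 1625 and 1507 FPKM at 0 dpa and 1601 and 1828 at 9 dpa, which overlapped.

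Hsf2, a heat shock transcription factor, was lower as well, at 25.8 and 17.4 FPKM at 0 dpa and 4.18 and 3.11 at 9 dpa (log2 fold change -2.27, SE 0.28, adjusted p = 0.0289). Of the cytosolic HSP90 genes, hsp90aa1.2 was at 65.5 and 30.3 FPKM at 0 dpa and 6.81 and 9.01 at 9 dpa, and hsp90aa1.1, which folds myosin in zebrafish muscle, at 81.3 and 120.3 FPKM at 0 dpa and 22.2 and 26.8 at 9 dpa. Neither pair overlapped. Co-chaperones that work with HSP70 were lower, dnajb1b by 1.73, dnaja1 by 1.33 and hspa4a by 1.13 on the log2 scale. Outside the list, unc45b, a chaperone of myosin that acts with HSP90, was lower by 1.18, and ptges3a, an HSP90 co-chaperone, by 1.202. Bag3, which links HSP70 to small heat shock proteins in muscle, was at 106 and 62.4 FPKM at 0 dpa and 38.7 and 33.7 at 9 dpa, and its call ended without 9 dpa replicate 2 (-1.05 in place of -1.15).

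Hspb6, a small heat shock protein of heart and muscle, was the most abundant gene of the adjusted list. It stood at 1081 and 769 FPKM at 0 dpa, 76.7 and 56.7 at 6 dpa and, at 9 dpa, 181 and 95.99, with the 0 dpa libraries several times higher than the other 4. Cryabb, an alpha-B crystallin, was at 15.4 and 12.99 FPKM at 0 dpa and 2.40 and 0.701 at 9 dpa, and hspb3, of muscle, at 70.28 and 35.5 FPKM at 0 dpa and 20.4 and 17.4 at 9 dpa. Hspb1, the most abundant small heat shock protein, was at 2403 and 1116 FPKM at 0 dpa and 1876 and 1844 at 9 dpa, which overlapped. In the endoplasmic reticulum the direction of the HSP90 homologue was the opposite: hsp90b1 was at 31.4 and 26.5 FPKM at 0 dpa and 80.3 and 69.7 at 9 dpa, a change on the log2 scale of 1.34 (SE 0.32, adjusted p = 0.171).

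**Figure D2:**
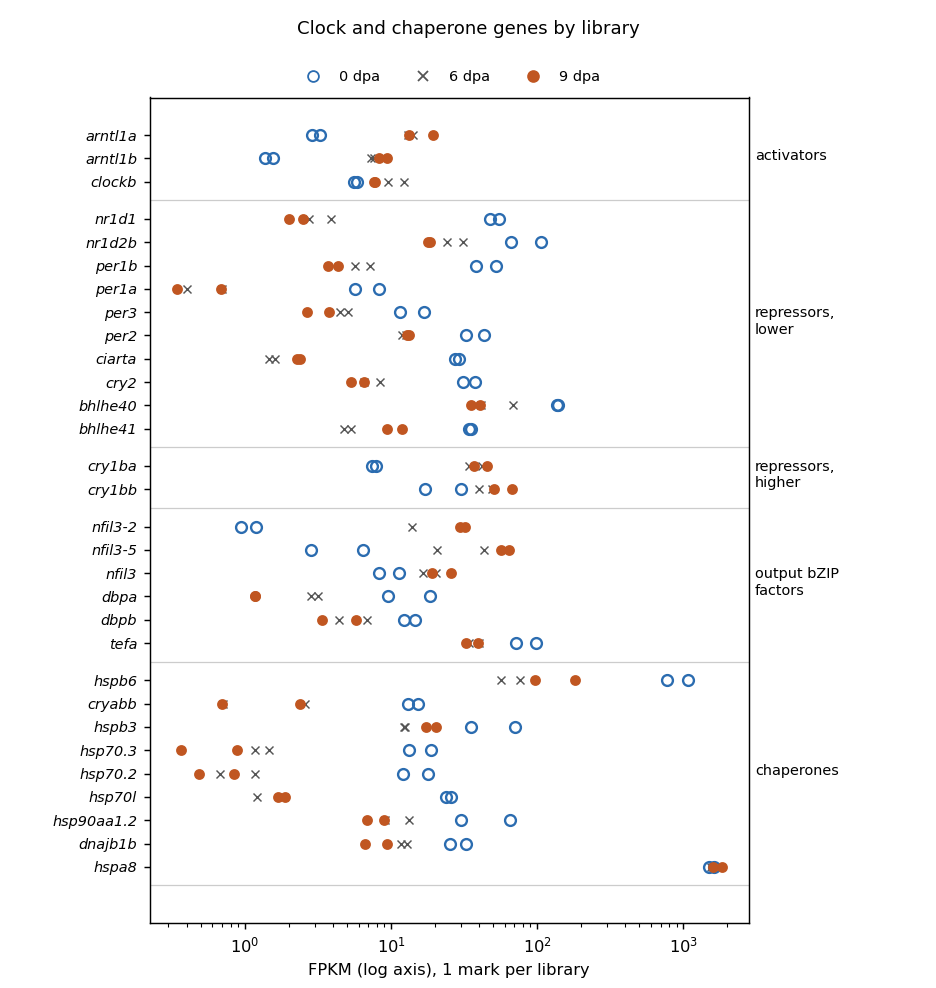
FPKM on a log axis of clock activators, repressors, output factors and chaperones, 1 mark per library: open blue circles 0 dpa, grey crosses 6 dpa, filled orange circles 9 dpa. The 0 and 9 dpa circles of the called genes do not overlap, while those of hspa8 lie together between 1507 FPKM at 0 dpa and 1828 at 9 dpa.

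The adjusted list also held lower genes outside these lists. Arg2, a mitochondrial arginase, stood at 44.5 and 60.3 FPKM at 0 dpa and 7.15 and 5.09 at 9 dpa (log2 fold change -2.91, SE 0.33, adjusted p = 0.0249). Hrh3, a histamine receptor, was at 89.0 and 74.98 FPKM at 0 dpa, 8.72 and 10.8 at 6 dpa and, at 9 dpa, 22.0 and 21.0. In both genes the 0 dpa libraries were the high pair. Slc25a33, a mitochondrial carrier of pyrimidine nucleotides, was at 85.4 and 77.1 FPKM at 0 dpa and 21.9 and 20.9 at 9 dpa, and chkb, a choline kinase, at 29.1 and 20.2 FPKM at 0 dpa and 5.86 and 6.51 at 9 dpa. Si:ch211-132b12.7 stood at 44.9 and 20.7 FPKM at 0 dpa and 1.49 and 0.795 at 9 dpa, a change on the log2 scale of -3.90. The members of this group were lower at 6 dpa too, except dnase1l4.1, a DNase I relative, which was at 7.92 and 17.4 FPKM at 0 dpa, 6.76 and 17.4 at 6 dpa and, at 9 dpa, 0.216 and 0.198. Its replicates at 0 and at 6 dpa spanned the same range, and both libraries at 9 dpa were far below it.

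Of the increases, ypel3, a Yippee-like protein that restrains growth in human cells, stood at 7.02 and 6.28 FPKM at 0 dpa and 64.5 and 35.8 at 9 dpa (log2 fold change 2.69, SE 0.34, adjusted p = 0.0306). Dapk2a, a death-associated protein kinase, was at 2.72 and 2.56 FPKM at 0 dpa and 13.6 and 13.9 at 9 dpa. Both were high in both libraries of 9 dpa. The gene zgc:56095 was at 27.7 and 26.1 FPKM at 0 dpa and 106 and 111 at 9 dpa, and zgc:113054 at 7.36 and 7.34 FPKM at 0 dpa and 27.8 and 34.02 at 9 dpa. These 2 genes are named in the annotation by clone only, and their replicates differed little beside the distance between the time points.

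Of 24 working myocardium genes, 3 were higher and 1 lower, so that 16.7% were called beside 12.5% of all members. The direction depended on the library used at 0 dpa: 9 were higher and 1 lower with replicate 1 of that day left out, and 2 and 4 with its replicate 2 left out. The median log2 fold change was 0.02 with all libraries and 0.53 and -0.49 in these 2 fits. Lmod2a, a leiomodin that starts actin filaments at their pointed ends, stood at 10.9 and 5.98 FPKM at 0 dpa and 64.0 and 42.9 at 9 dpa (log2 fold change 2.55, SE 0.34, adjusted p = 0.0338). Nexn, nexilin of the Z-disc, was at 49.2 and 25.4 FPKM at 0 dpa and 107 and 87.3 at 9 dpa, and actc1b, a muscle actin, at 4.55 and 0.930 FPKM at 0 dpa and 21.1 and 12.3 at 9 dpa. Tnni1d, a troponin I, was higher by 2.02 on the log2 scale, a call that ended without 0 dpa replicate 2 (1.67) and 9 dpa replicate 1 (1.57). Tcap, the titin cap, was the gene called lower: it was at 725 and 498 FPKM at 0 dpa, 122 and 129 at 6 dpa and, at 9 dpa, 203 and 96.9, a change on the log2 scale of -2.09 (SE 0.41, adjusted p = 0.112). Fhl2b, a LIM protein of heart muscle outside the list, fell from 205 and 99.6 FPKM to 47.7 and 13.7.

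Muscle-specific ubiquitin ligase genes, several of which mark sarcomere proteins for breakdown, were more often higher than lower. Of 16 tested, 6 were called higher and 1 lower, 43.75% called beside 12.5% of all members. The median log2 fold change was 0.55, but 0.999 with 0 dpa replicate 1 left out and 0.09 with 0 dpa replicate 2 left out. Asb15b, a SOCS box substrate adaptor, stood at 1.29 and 1.35 FPKM at 0 dpa, 12.6 and 24.2 at 6 dpa and, at 9 dpa, 24.2 and 24.4. Trim55a (Murf2 in mammals) was at 4.09 and 4.73 FPKM at 0 dpa and 23.0 and 18.7 at 9 dpa (log2 fold change 2.01, SE 0.25, adjusted p = 0.0289). In both genes the libraries of 9 dpa were several times those of 0 dpa. Asb16 was higher by 1.37, and asb10 by 1.27, the latter not called without 9 dpa replicate 1 (1.101). Fbxo32, atrogin-1, was higher by 0.96 and fbxo40.1 by 1.34, and both calls ended without 0 dpa replicate 2 (0.73 and 0.72) or with 9 dpa replicate 1 left out (0.67 and 1.03). Klhl40a was lower by 0.74, and its call ended without 0 dpa replicate 2 (-0.66), 9 dpa replicate 2 (-0.47) or either 6 dpa library, which leaves the value as it is. Trim63a, the most abundant of the list, was at 333 and 124 FPKM at 0 dpa and 245 and 175 at 9 dpa, which overlapped.

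Of 12 calcium handling genes 2 were lower and 0 higher, 16.7% beside 12.5% of all members. With the rescaling without haemoglobin 1 was lower and 0 higher. With 0 dpa replicate 1 left out 1 was higher and 1 lower, and with replicate 2 left out 0 and 4. Sypl2b, of the membrane junctions that release calcium in muscle, was lower by 1.04 (not called without 0 dpa replicate 2 or 9 dpa replicate 1 or 2, at -0.59 to -1.19). Camk2d2, a calmodulin-dependent kinase, fell by 1.29, a call that ended without 0 dpa replicate 1 (-0.69) and 9 dpa replicate 2 (-1.08). None of the 16 cardiac transcription factors and 9 natriuretic peptide and stretch genes was called, and 0 of them had an unadjusted P under 0.05. Of the transcription factors 4 were called higher and 0 lower with 0 dpa replicate 1 left out (median 0.18), and 0 higher and 6 lower with 0 dpa replicate 2 left out (median -0.62). Of the natriuretic peptide and stretch genes 0 were higher in both fits, 1 lower in the first and 2 in the second. Of 89 subunits of the respiratory chain 1 was called, cox6b1, at 1024 and 959 FPKM at 0 dpa and 1648 and 1809 at 9 dpa, and its call ended without 9 dpa replicate 1 (0.87), 9 dpa replicate 2 (0.73) or 6 dpa replicate 2, the last without a move of the value. Leaving out 0 dpa replicate 1 gave 23 higher and 0 lower subunits and a median of 0.40, and leaving out 0 dpa replicate 2 gave 1 higher and 3 lower and a median of -0.34, opposite in sign. Of 39 genes of fatty acid oxidation and the citrate cycle 2 were lower, the carnitine palmitoyltransferases cpt1b and cpt1aa, and 0 higher. Here too the 0 dpa libraries differed: 12 were higher and 2 lower without the first, and 0 and 4 without the second. Cpt1b was at 259.8 and 131 FPKM at 0 dpa and 78.6 and 82.7 at 9 dpa, and was not called without 9 dpa replicate 1 (-1.15) or replicate 2 (-1.22). Cpt1aa was lower by 0.72 and lost its call without 0 dpa replicate 2 (-0.56), 9 dpa replicate 1 (-0.70) and 9 dpa replicate 2 (-0.73).

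Of 39 genes of glycolysis and pyruvate metabolism 4 (10.3%) were called, 3 higher and 1 lower, beside 12.5% of all members. Of 17 of fatty acid uptake and lipid transport 3 (17.6%) were called, 1 higher and 2 lower. Among these, pdk2b and slc27a6, higher, and pfkfb3, lower, were called under 14, 11 and 4 of 15 alternative settings. The single genes of lipid and sugar handling given next were called and had libraries that did not overlap. Such separation held for 41.1% of all members. Lpl, lipoprotein lipase, which releases fatty acids from blood lipids, was at 109 and 69.9 FPKM at 0 dpa and 34.3 and 17.13 at 9 dpa, and acsl4a, an acyl-CoA synthetase, at 17.7 and 19.1 FPKM at 0 dpa and 6.98 and 5.89 at 9 dpa. Slc25a4, an ADP/ATP carrier of mitochondria, fell from 70.0 and 40.75 FPKM to 9.59 and 1.73. Pygl, a glycogen phosphorylase, was at 25.6 and 5.78 FPKM at 0 dpa and 0.769 and 1.38 at 9 dpa, and slc37a4b, a glucose-6-phosphate transporter, at 40.3 and 12.97 FPKM at 0 dpa and 5.43 and 5.18 at 9 dpa. These 5 genes were lower, and slc25a4, pygl and slc37a4b are on neither list. Higher were pfklb, a phosphofructokinase, at 1.84 and 1.32 FPKM at 0 dpa and 6.29 and 6.43 at 9 dpa, and slc16a1a, a lactate transporter, at 3.98 and 2.99 FPKM at 0 dpa and 17.2 and 10.2 at 9 dpa. Of 38 antioxidant enzymes 6 were higher and 2 lower, 21.1% called beside 12.5% of all members. Among them were mgst1.1, a glutathione transferase, higher by 1.41 (not called without 0 dpa replicate 2 or 9 dpa replicate 1, at 0.89 to 1.05), and cat, catalase, at 43.43 and 26.05 FPKM at 0 dpa and 85.6 and 72.2 at 9 dpa, whose call ended without 9 dpa replicate 1 (1.08).

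Genes of the extracellular matrix that passed the test were mostly higher at 9 dpa. Of 6 collagen chains tested 4 were higher and 0 lower, 66.7% called beside 12.5% of all members. The median log2 fold change was 1.71, and lay between 1.44 and 1.97 when either 0 dpa library was left out. It depended on the FPKM minimum, which 6 of the 20 chains in the table reached. With a minimum of 1 FPKM the median was 0.938, and with no minimum 0.421. The chains of type I collagen, the main collagen of scars, were all higher: col1a1a was at 93.6 and 74.1 FPKM at 0 dpa and 255 and 343 at 9 dpa. Col1a1b was at 130.5 and 80.7 FPKM at 0 dpa and 281 and 355 at 9 dpa and col1a2 at 107 and 78.1 FPKM at 0 dpa and 288 and 370.4 at 9 dpa. In each the lower 9 dpa library exceeded the higher 0 dpa library, and the log2 fold changes were 1.82, 1.61 and 1.83 (SE 0.42, 0.41 and 0.38; adjusted p = 0.157, 0.187 and 0.129). Col11a1b, a minor fibrillar chain, stood at 0.305 and 1.28 FPKM at 0 dpa and 6.05 and 14.9 at 9 dpa, and reached the FPKM minimum through its 9 dpa libraries. Of 22 enzymes that fold, modify and cross-link collagen, 7 were higher and 1 lower, 36.4% called beside 12.5% of all members. Kdelr3, a retrieval receptor of the secretory path, was higher by 1.62, fkbp9, a prolyl isomerase, by 1.15 and loxl3b, a lysyl oxidase, by 0.88.

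Of fibronectins and other matrix glycoproteins, 12 of 34 tested were higher and 1 lower, 38.2% called beside 12.5% of all members. Fn1b, one of the fibronectins that zebrafish epicardium makes after injury, was at 102 and 139.9 FPKM at 0 dpa, 779 and 340.3 at 6 dpa and, at 9 dpa, 354 and 692. Fn1a was at 11.9 and 17.97 FPKM at 0 dpa and 43.7 and 83.3 at 9 dpa, and its call ended without 9 dpa replicate 2 (1.52). Postnb, a periostin of activated fibroblasts, was at 24.4 and 32.4 FPKM at 0 dpa and 88.8 and 335 at 9 dpa. In all 3 genes 9 dpa replicate 2 was the highest of the 4 libraries, and the lower 9 dpa library was still above both of 0 dpa. Timp4.3, an inhibitor of metalloproteinases, was at 3.28 and 2.94 FPKM at 0 dpa and 9.44 and 16.01 at 9 dpa. Sparc, which binds collagen, was called higher by 1.08, but not without 0 dpa replicate 2 (0.67), 9 dpa replicate 1 (1.29) or 9 dpa replicate 2 (0.87). Outside the lists, aebp1, which binds collagen, was at 14.6 and 18.5 FPKM at 0 dpa and 49.9 and 49.7 at 9 dpa, and cilp, a cartilage and heart matrix protein, at 13.3 and 11.7 FPKM at 0 dpa and 35.8 and 30.0 at 9 dpa.

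Of 15 epicardial genes 4 were higher and 1 lower, and 10 had both 9 dpa libraries above both of 0 dpa, beside 20.3% of all members. The size of the rise depended on the 9 dpa library used. The list's median log2 fold change of 0.89 shrank to 0.34 once 9 dpa replicate 2 was dropped, and grew to 1.12 once 9 dpa replicate 1 was. Dropping either 0 dpa library gave 0.89 or 0.80. At 9 dpa, 14 of the 15 genes were higher in replicate 2, and the summed FPKM was 2264 and 4097, beside 2154 and 2145 at 0 dpa. Sema3d, a guidance molecule of the epicardium, stood at 3.59 and 2.97 FPKM at 0 dpa and 9.71 and 12.4 at 9 dpa (log2 fold change 1.49, SE 0.26, adjusted p = 0.0804). Tbx18, an epicardial transcription factor, was higher by 0.89, not called without 9 dpa replicate 2 (0.67), and mxra8a by 1.53, not called without 0 dpa replicate 1 (1.33) or 9 dpa replicate 2 (1.39). Postnb stands on this list as well as among the matrix genes. Cav1, of caveolae, was the gene called lower, by 0.83, and lost its call without 0 dpa replicate 1 (-0.81), 9 dpa replicate 1 (-0.89) and 9 dpa replicate 2 (-0.76). Wt1b, induced in injured epicardium, was at 3.73 and 8.03 FPKM at 0 dpa and 8.56 and 32.8 at 9 dpa, and was not called. The retinoic acid enzyme aldh1a2 was at 79.3 and 145 FPKM at 0 dpa and 83.9 and 126 at 9 dpa, which overlapped.

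Genes of red blood cells that passed were all higher at 9 dpa. Of the list without haemoglobin, 19 of 29 tested were called higher and 0 lower, 65.5% called beside 12.5% of all members. The median log2 fold change was 1.03, 1.38 with 0 dpa replicate 1 left out and 0.84 with 0 dpa replicate 2 left out. Alas2, the first enzyme of haem synthesis in red cells, was at 478 and 224 FPKM at 0 dpa and 1486 and 917 at 9 dpa. Later steps of the same path rose as well: urod was at 8.15 and 6.09 FPKM at 0 dpa and 38.0 and 21.7 at 9 dpa, and ppox at 2.40 and 2.95 FPKM at 0 dpa and 18.1 and 7.16 at 9 dpa. For the 3 enzymes the libraries of 9 dpa were all above those of 0 dpa, with log2 fold changes of 1.83, 1.89 and 1.77 (SE 0.43, 0.34 and 0.40; adjusted p = 0.168, 0.0894 and 0.152). The iron receptor tfr1a was at 44.3 and 33.4 FPKM at 0 dpa and 108 and 103 at 9 dpa, and tfr2, outside the list, at 2.08 and 0.566 FPKM at 0 dpa and 11.08 and 7.69 at 9 dpa. Of the transcription factors that make red cells, gata1a was higher by 1.69, klf1 by 1.26 and gfi1b by 1.29, and of proteins of the mature cell, cahz, a carbonic anhydrase, by 1.63, rhag by 1.54 and the ankyrin ank1a by 1.25.

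Haemoglobin transcripts themselves did not show the same count, with 1 of 9 tested called higher and 1 lower. Si:ch211-5k11.8, a haemoglobin gene of near-identical copies, was at 28259 and 22380.3 FPKM at 0 dpa and 22514 and 41437 at 9 dpa, which overlapped. Hbae1, an embryonic alpha globin, was at 1.68 and 7.18 FPKM at 0 dpa and 342 and 22.0 at 9 dpa, so its size rested on 9 dpa replicate 1: the log2 fold change was 2.29 without that library in place of 4.24, and was still called. Hbae5 was lower by 1.45 (not called without 0 dpa replicate 1, 6 dpa replicate 1 or 9 dpa replicate 2, at -0.58 to -1.20). Ba1 and hbaa1, left out of the test, were listed at 0 in some libraries only. Alas1, the housekeeping counterpart of alas2, was higher as well, at 445 and 232 FPKM at 0 dpa, 388 and 316 at 6 dpa and, at 9 dpa, 1414 and 894. Of 11 thrombocyte genes 4 were higher and 0 lower, 36.4% called beside 12.5% of all members. They were gata1a, which stands on both lists, nfe2 by 1.15 (not called without 0 dpa replicate 2, 6 dpa replicate 1 or 9 dpa replicate 1, at 0.54 to 0.95), f13a1b by 0.93 (not called without 0 dpa replicate 1 or 9 dpa replicate 2, at 0.55 to 0.76) and mpl by 0.80 (not called without 0 dpa replicate 1 or 2, 6 dpa replicate 1 or 9 dpa replicate 2, at 0.44 to 0.86). How far a different amount of blood in the tissue entered these values was not tested.

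**Figure D3:**
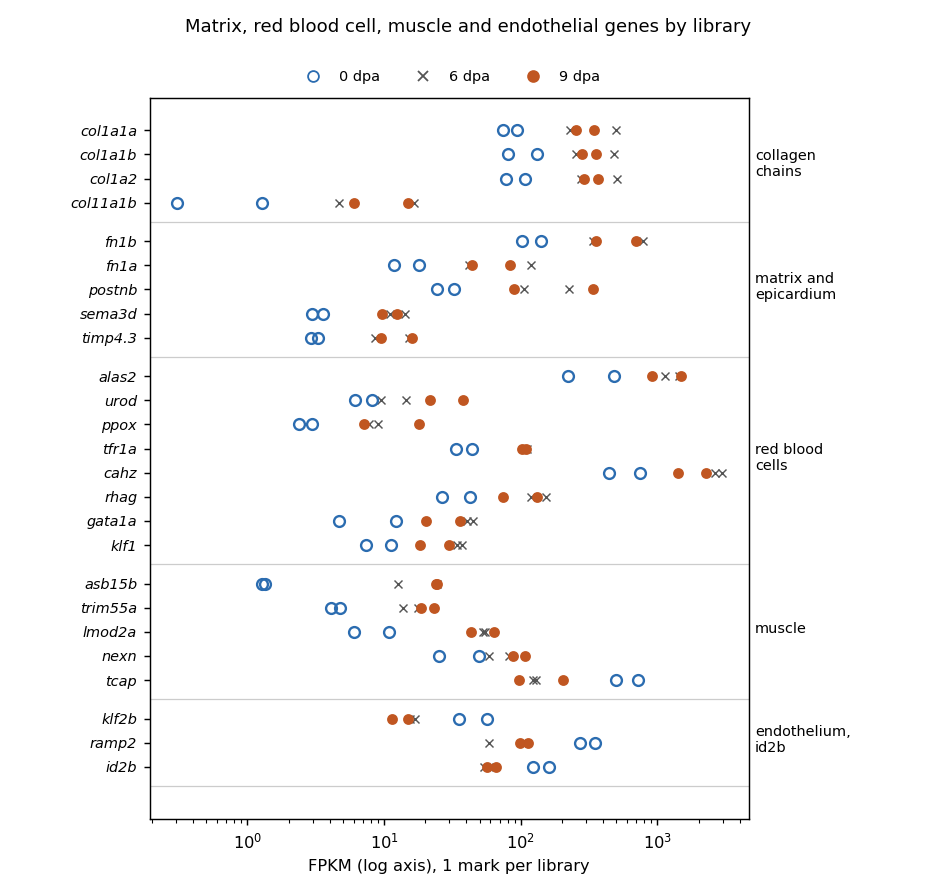
FPKM on a log axis of collagen, matrix, red blood cell, muscle and endothelial genes, 1 mark per library: open blue circles 0 dpa, grey crosses 6 dpa, filled orange circles 9 dpa. Fn1a loses its call without 9 dpa replicate 2, and the other genes shown are called without each library in turn. The col1a2 circles of 9 dpa sit at 288 and 370.4 FPKM, both above those of 0 dpa at 107 and 78.1.

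Genes of the cell cycle that passed were higher, and their number depended on which library at 0 dpa was used. Of 44 DNA replication genes 8 (18.2%) were called higher, and of 50 genes of mitosis 9 (18%), with none lower. Of all members 6.82% were called higher. Mcm7, of the replicative helicase, stood at 12.4 and 11.4 FPKM at 0 dpa and 33.7 and 34.3 at 9 dpa (log2 fold change 1.44, SE 0.28, adjusted p = 0.112). Spc24, of the kinetochore, was at 1.91 and 2.73 FPKM at 0 dpa and 8.73 and 7.25 at 9 dpa, and tacc3, of the spindle, at 4.26 and 3.24 FPKM at 0 dpa and 11.6 and 9.44 at 9 dpa. These 3 genes were called without each library in turn. Aurkb, a mitotic kinase, was at 2.81 and 8.02 FPKM at 0 dpa and 10.6 and 15.4 at 9 dpa, and lost its call without 0 dpa replicate 1 (0.61 in place of 1.23) and 9 dpa replicate 2 (0.99), and also without 6 dpa replicate 1. Without 0 dpa replicate 1 the median of the mitosis list was 0.22, with 2 genes called higher, and without 0 dpa replicate 2 it was 1.27, with 31. The summed FPKM of the list was 171 and 357 at 0 dpa and 405 and 407 at 9 dpa, so that 0 dpa replicate 2 was close to the libraries of 9 dpa. Cdkn1d, an inhibitor of cyclin-dependent kinases outside the list, was higher at 48.2 and 27.0 FPKM at 0 dpa and 111 and 141 at 9 dpa.

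Macrophage and neutrophil genes gave no single direction, and the libraries at 0 dpa lay on either side of those at 9 dpa. The summed FPKM of the 40 genes was 1746 and 11798 at 0 dpa and 2985 and 2862 at 9 dpa. At most 2 of these genes were listed at 0 in any library. With all libraries, 2 of 36 tested were called lower and 0 higher. Without 0 dpa replicate 1, 31 were called lower (median -1.63), and without 0 dpa replicate 2, 18 were called higher (median 0.86). Cd74a, the invariant chain of antigen presentation, was at 586 and 2662 FPKM at 0 dpa and 785 and 1045 at 9 dpa. Grn2 was at 87.9 and 2016 FPKM at 0 dpa and 118 and 14.9 at 9 dpa, so that its call as lower rested on 0 dpa replicate 2, without which the log2 fold change was -1.03 in place of -3.28. It was not called either without 9 dpa replicate 2 (-1.83) or without either library of 6 dpa. The other called gene, fgl2a, at 106 and 196 FPKM at 0 dpa and 76.03 and 70.7 at 9 dpa, lost its call without 0 dpa replicate 2 (-0.53), 9 dpa replicate 1 (-1.02) and 9 dpa replicate 2 (-0.92).

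The split between the 0 dpa libraries reached other immune lists. Interferon response and antigen presentation genes had a median of -0.51 without 0 dpa replicate 1 and 0.68 without replicate 2, and chemokine and interleukin genes -1.04 and 0.19. Of the former list 18 were called lower and 2 higher in the first case and 0 and 14 in the second. With all libraries, 3 of 37 interferon and antigen presentation genes were called higher and 1 lower, 10.8% beside 12.5% of all members. Of 30 chemokine and interleukin genes 2 were higher and 3 lower, 16.7% called, and 24 had a negative log2 fold change (median -0.42). The lower ones, ccl25b, il6r and ccl19a.1, were called under 14, 13 and 13 of 15 alternative settings. A few immune genes had 9 dpa libraries separate from both 0 dpa libraries. Cxcl20, a chemokine, stood at 14.2 and 10.3 FPKM at 0 dpa and 50.6 and 57.4 at 9 dpa (log2 fold change 2.07, SE 0.35, adjusted p = 0.0804). Ccl38.1, another chemokine, was listed at 0 in both libraries at 0 dpa and at 8.52 and 4.18 FPKM at 9 dpa. Rsad2 (viperin), an interferon-induced gene, was at 4.82 and 2.44 FPKM at 0 dpa and 14.9 and 14.98 at 9 dpa. Nkl.4, an NK-lysin of killer lymphocytes, was at 0 and 1.34 FPKM at 0 dpa and 7.48 and 12.9 at 9 dpa. It reached the FPKM minimum only through its 9 dpa libraries. Of 10 lymphocyte genes tested it was the only 1 called, and 7 had a negative log2 fold change (median -0.50). Dropping the first 0 dpa library moved that median to -1.22, and dropping the second moved it to 0.50. Among separate immune genes, ltb4r, a leukotriene receptor, was lower, at 15.2 and 19.8 FPKM at 0 dpa and 4.79 and 4.96 at 9 dpa. Ptgs2b, a cyclooxygenase, was lower too, at 15.04 and 16.6 FPKM at 0 dpa and 3.47 and 2.47 at 9 dpa.

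**Figure D4:**
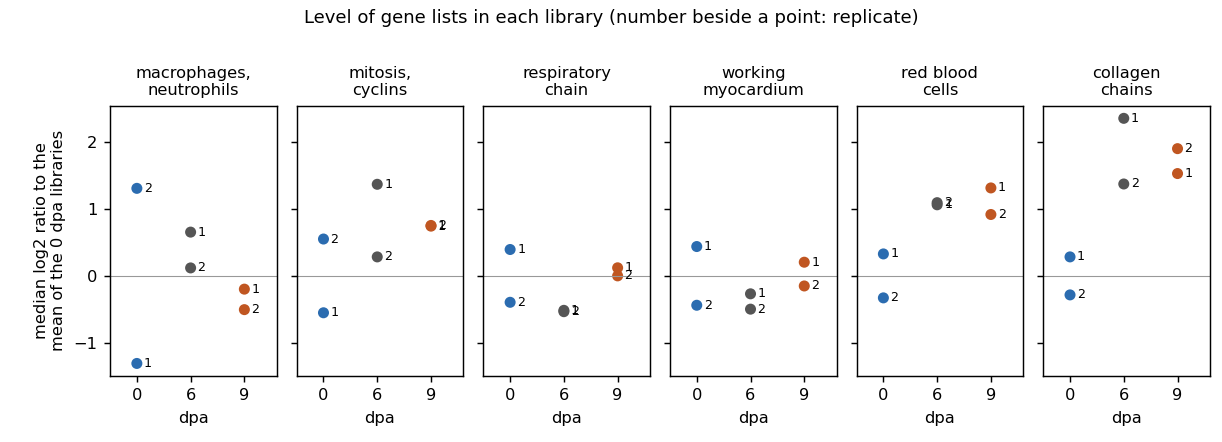
Level of 6 gene lists in each library, as the median over the list's tested genes of the log2 ratio to the gene's mean in the 0 dpa libraries. Blue points are 0 dpa, grey 6 dpa and orange 9 dpa, with the replicate number beside each. For macrophages and neutrophils the 9 dpa points (-0.20 and -0.50) lie between the 0 dpa points (-1.30 and 1.304), and for collagen chains they (1.52 and 1.89) lie above them (0.28 and -0.28).

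Of endothelial and endocardial genes that passed with all libraries, more were lower than higher. Of 41 tested 6 were lower and 1 higher, and 18 had both libraries at 9 dpa below both of 0 dpa, beside 20.9% of all members. With 0 dpa replicate 1 left out the count was even, 3 higher and 3 lower, and with 0 dpa replicate 2 left out it was 1 higher and 11 lower. Klf2b, a transcription factor that blood flow induces in endocardium, was at 56.9 and 35.5 FPKM at 0 dpa, 15.4 and 16.9 at 6 dpa and, at 9 dpa, 14.8 and 11.4 (log2 fold change -1.71, SE 0.30, adjusted p = 0.0833). Ramp2, part of the receptor for adrenomedullin, was at 349.6 and 271 FPKM at 0 dpa and 99.01 and 113 at 9 dpa. Both were low in all 4 later libraries. The scavenger receptor genes lyve1a and stab2 of lymphatic and venous endothelium were lower by 1.64 and 1.23, and both lost their call without 0 dpa replicate 1 (-1.34 and -1.17) and 9 dpa replicate 2 (-1.59 and -1.07). Of 19 Notch pathway genes 15.8% were called, beside 12.5% of all members. 3 were lower, the feedback regulators nrarpa and nrarpb and the target her6, and 0 higher. The count was 1 higher and 1 lower without replicate 1 of 0 dpa, and 0 and 4 without its replicate 2. Nrarpa was at 97.0 and 59.6 FPKM at 0 dpa and 44.7 and 23.3 at 9 dpa. All 3 lost their call without 0 dpa replicate 1, at -0.86, -0.68 and -0.56, and without 9 dpa replicate 2, at -0.75, -0.66 and -0.74, and her6 also without 9 dpa replicate 1 (-1.03).

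The BMP pathway genes that passed with all libraries were lower, most of them id genes, which are direct targets of bone morphogenetic protein (BMP) signals. Of 26 BMP pathway genes 5 were lower and 0 higher, 19.2% called beside 12.5% of all members. Of the 5, 4 were id genes. Calls in the other direction appeared when the libraries or the scale were changed: 2 higher and 3 lower with 0 dpa replicate 1 left out, 1 and 8 with 0 dpa replicate 2 left out, and 1 higher and 2 lower with the rescaling without haemoglobin. Id2b was at 162 and 124 FPKM at 0 dpa and 65.8 and 56.3 at 9 dpa (log2 fold change -1.20, SE 0.29, adjusted p = 0.169). Id1 was at 159 and 183 FPKM at 0 dpa and 75.1 and 110.3 at 9 dpa, without overlap, and lost its call without 9 dpa replicate 1 (-0.63) and with the rescaling without haemoglobin. Id3 was lower by 0.70 (not called without 0 dpa replicate 1, 6 dpa replicate 1 or 2 or 9 dpa replicate 1 or 2, at -0.52 to -0.84), id4 by 0.87 (not called without 0 dpa replicate 1 or 2, 6 dpa replicate 1 or 9 dpa replicate 2, at -0.44 to -0.92) and smad9, which carries BMP signals, by 0.83 (not called without 0 dpa replicate 1, 6 dpa replicate 1 or 2 or 9 dpa replicate 1 or 2, at -0.38 to -0.91). With the rescaling without haemoglobin id3 and id4 were not called either. The ligand gene bmp4 stayed below the FPKM minimum, at 3.73 and 1.85 FPKM at 0 dpa and 2.49 and 1.11 at 9 dpa. Krt5, a basal keratin, was at 3.30 and 1.73 FPKM at 0 dpa and 12.3 and 7.04 at 9 dpa, without overlap, and was not called.

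Of 22 genes of the transforming growth factor beta and activin path 1 was higher and 3 lower, and 7 lower with 0 dpa replicate 2 left out. With all libraries 18.2% of this list was called, beside 12.5% of all members. With the rescaling without haemoglobin 3 were higher and 2 lower, and the median log2 fold change was 0.06 in place of -0.10. Smad3a, which carries signals of this path, was at 11.6 and 10.4 FPKM at 0 dpa and 5.45 and 4.77 at 9 dpa. The activin subunit inhbab was lower by 1.35 (not called without 0 dpa replicate 1 or 9 dpa replicate 2, at -0.73 to -1.16), the ligand tgfb3 by 0.75 (not called without 0 dpa replicate 1, 6 dpa replicate 1 or 2 or 9 dpa replicate 1, at -0.50 to -0.64), and the repressor tgif1 was higher by 0.74 (not called without 0 dpa replicate 1, 6 dpa replicate 1 or 9 dpa replicate 1, at 0.49 to 0.60). Of 35 Wnt pathway genes 2 were higher and 3 lower, 14.3% called beside 12.5% of all members. The lower ones numbered 1 with 0 dpa replicate 1 left out and 9 with replicate 2 left out. The Wnt inhibitor sfrp1a was at 4.60 and 3.92 FPKM at 0 dpa and 13.2 and 17.3 at 9 dpa. The R-spondins, which strengthen Wnt signals, went apart: rspo3 was at 3.51 and 3.59 FPKM at 0 dpa and 9.48 and 12.1 at 9 dpa, and rspo1 at 5.95 and 6.66 FPKM at 0 dpa and 0.744 and 1.48 at 9 dpa. Their receptor lgr4 was lower by 0.74 (not called without 0 dpa replicate 1, 6 dpa replicate 1 or 9 dpa replicate 1 or 2, at -0.52 to -0.82) and the ligand wnt11r by 0.93 (not called without 0 dpa replicate 1 or 9 dpa replicate 1 or 2, at -0.58 to -0.97). Of 24 genes of ErbB, PDGF, FGF and VEGF signalling etv5b, a target of FGF signals, was higher by 1.31 (not called without 9 dpa replicate 1, at 0.71). Of 14 genes of the insulin-like growth factor path pappaa, a protease that frees the ligand, was lower by 1.29 (not called without 0 dpa replicate 1 or 2 or 9 dpa replicate 1 or 2, at -1.06 to -1.51).

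With all libraries, none of 85 cytosolic ribosomal protein genes, 74 mitochondrial ribosomal protein genes and 43 proteasome genes was called, and 0 of these had an unadjusted P under 0.05. With 0 dpa replicate 2 left out, however, 21 of the cytosolic ribosomal protein genes were called lower and 0 higher (median -0.49 in place of -0.25), and with replicate 1 left out 2 higher and 1 lower. The mitochondrial ribosomal protein genes gave 4 lower and 0 higher in the former fit and 2 higher and 1 lower in the latter. Of the proteasome genes 7 were lower and 0 higher without 0 dpa replicate 1, and 4 higher and 0 lower without replicate 2, the opposite direction. Of 59 genes of ribosome assembly 7 were lower and 0 higher. This is 11.9%, beside 12.5% of all members called and 5.7% called lower. With the rescaling without haemoglobin 5 were lower and 1 higher. Among the lower genes with all libraries were rrs1 (-1.11) and gnl3 (-0.84), both nucleolar. Of 67 translation factors 3 were higher and 3 lower, 8.96% called beside 12.5% of all members. Of the initiation factors, eif4e1c, a cap-binding protein of the eIF4E family, was at 39.6 and 38.0 FPKM at 0 dpa and 14.0 and 14.6 at 9 dpa, and eif4a1a, an RNA helicase, at 144 and 152 FPKM at 0 dpa and 66.6 and 48.2 at 9 dpa. Both pairs were separate and lower at 9 dpa. Eif4a2 was higher by 1.07, but not called without 0 dpa replicate 2 (0.54), 9 dpa replicate 1 (1.06) or 9 dpa replicate 2 (1.08). Eif4e2 was also called higher, and under 14 of 15 alternative settings. Of 41 tRNA synthetase and amino acid response genes 7 were higher and 0 lower, led by atf5a, a stress-response transcription factor, at 11.7 and 3.55 FPKM at 0 dpa and 35.08 and 21.0 at 9 dpa.

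The endoplasmic reticulum list split, with 6 of 63 genes higher and 7 lower, 20.6% called beside 12.5% of all members. Among the higher genes were folding factors of its lumen: hsp90b1, pdia4, a disulphide isomerase, at 9.398 and 10.7 FPKM at 0 dpa and 26.3 and 24.9 at 9 dpa, and calr, calreticulin, at 3.41 and 4.98 FPKM at 0 dpa and 9.25 and 9.99 at 9 dpa. Sdf2 was lower by 1.26. With the rescaling without haemoglobin 7 genes of this list were higher and 4 lower. Of 31 enzymes and readers of H3K9 marks 4 were higher and 0 lower, 12.9% called beside 12.5% of all members, and none kept its call without each library in turn. With 0 dpa replicate 1 left out 7 were higher and 1 lower, and with replicate 2 left out 1 and 0. Cbx1a, an HP1 reader of H3K9 trimethylation, was at 8.24 and 11.3 FPKM at 0 dpa and 22.2 and 19.4 at 9 dpa and was not called without 9 dpa replicate 1 (0.94 in place of 1.03). The others were the deacetylases hdac8 and hdac10 and the methyltransferase family gene setdb2, which lost their calls without 0 dpa replicate 2, at 0.39, 0.61 and 0.67. They lost them without 9 dpa replicate 2 too (0.79, 0.74 and 0.64), and hdac8 and setdb2 without 9 dpa replicate 1 (0.57 and 0.81). Hdac8 was not called either without either library of 6 dpa. Kdm6bb, a demethylase of another histone site, H3 lysine 27, was at 5.79 and 5.18 FPKM at 0 dpa and 22.4 and 15.3 at 9 dpa.

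**Figure D5:**
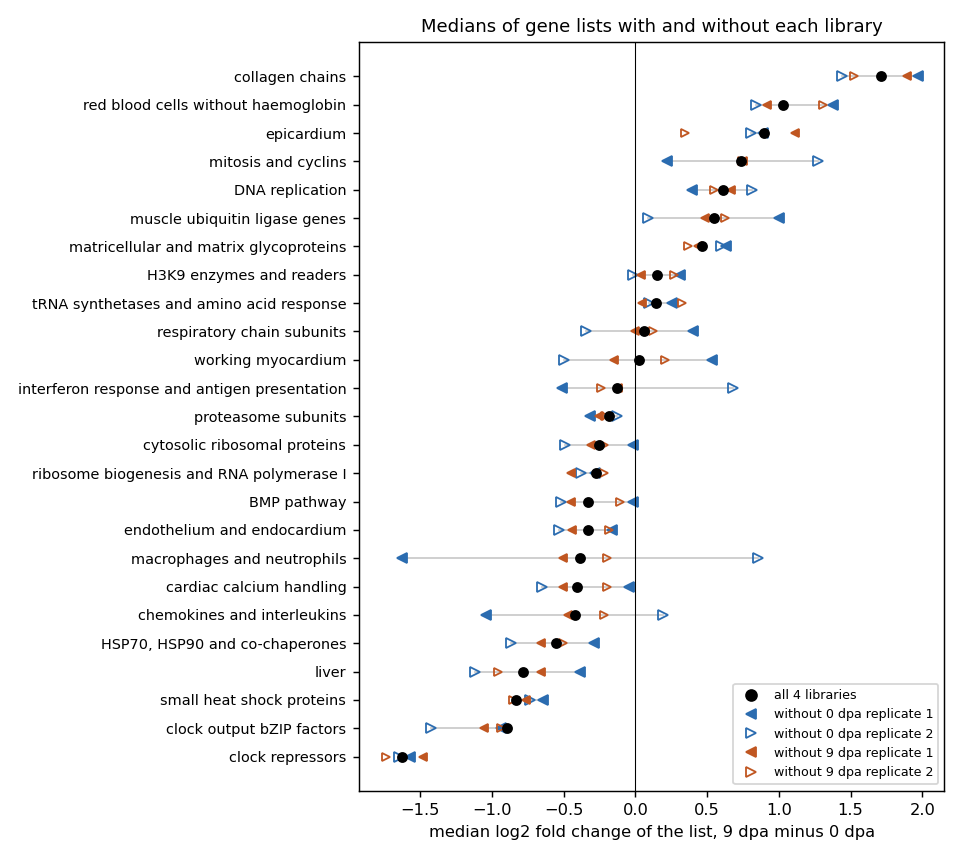
Median log2 fold change (9 dpa minus 0 dpa) of 25 gene lists. Black circles use all 4 libraries, blue triangles leave out a 0 dpa library (filled replicate 1, open replicate 2) and orange triangles a 9 dpa library. The clock repressors stay between -1.74 and -1.48, while macrophages and neutrophils range from -1.63 to 0.86.

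Among genes outside every list, a few more showed large and separate levels. Cirbpb, a cold-inducible RNA-binding protein, was the most abundant of the calls kept without each library and fell from 1991 and 1608 FPKM to 732 and 627. Rpph1, the RNA of ribonuclease P, was at 302 and 15.7 FPKM at 0 dpa and 0 and 3.81 at 9 dpa, with the 0 dpa libraries far apart. Without 0 dpa replicate 1 its log2 fold change was -2.93 in place of -5.02, and it was still called. Tg, thyroglobulin of the thyroid, was at 13.4 and 13.5 FPKM at 0 dpa, 0.136 and 0.209 at 6 dpa and, at 9 dpa, 2.47 and 0.178. Coq10b, of coenzyme Q function, was lower at 395 and 324 FPKM at 0 dpa and 113 and 154 at 9 dpa, and thy1, a surface protein of fibroblasts and T cells, was higher at 11.6 and 14.7 FPKM at 0 dpa and 46.7 and 26.5 at 9 dpa. Adrb3a, a beta-adrenergic receptor, was at 6.98 and 3.04 FPKM at 0 dpa and 14.9 and 15.8 at 9 dpa.

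Genes of other tissues were measured as a check of the dissection. Some genes of skin and liver that stayed under the FPKM minimum were far higher in 6 dpa replicate 2. In that library epcam stood at 60.7 FPKM, cldne at 38.9, krt17 at 35.7 and fabp10a, of liver, at 37.7. None of them exceeded 4.43 FPKM at 0 or 9 dpa. The liver list as a whole was not higher there, with a sum of 1382 FPKM beside 1505 in 6 dpa replicate 1. Both 6 dpa libraries are part of the fit, so their spread enters the standard errors. The 26 liver genes summed to 1674 and 1103 FPKM at 0 dpa and 1070.5 and 1569.8 at 9 dpa, with between 4 and 15 of them listed at 0 in a library. Of 9 tested 4 were lower and 0 higher, 44.4% called beside 12.5% of all members. They were cyp2ad2 by 1.77 (not called without 0 dpa replicate 1 or 9 dpa replicate 2, at -0.96 to -1.43), ahsg1 by 1.47 (not called without 0 dpa replicate 1 or 9 dpa replicate 2, at -0.96 to -1.08), cyp2p6 by 0.78 (not called without 0 dpa replicate 1, 6 dpa replicate 1 or 2 or 9 dpa replicate 1 or 2, at -0.45 to -0.91) and vtg1, a yolk protein. Vtg1 was at 34.4 and 0.931 FPKM at 0 dpa but listed at 0 in each library of 9 dpa, and was not called without 0 dpa replicate 1, 6 dpa replicate 1 or either library of 9 dpa. Of 7 keratins krt15 was higher by 1.34 (not called without 9 dpa replicate 2, at 1.05), and of 10 other skin genes s100a10a was higher by 1.46 (not called without 9 dpa replicate 2, at 1.25) and perp lower by 0.88 (not called without 0 dpa replicate 1 or 9 dpa replicate 2, at -0.60 to -0.70). Of 9 skeletal muscle genes 7 had a positive log2 fold change. Their median was 0.72, and 0.15 to 1.17 with a 0 or 9 dpa library left out. The 1 gene called, mylk2, was lower by 0.84 (not called without 0 dpa replicate 1, 6 dpa replicate 1 or 2 or 9 dpa replicate 1 or 2, at -0.53 to -1.06). Smooth muscle and pericyte genes gave 3 higher of 15, cald1a by 0.92 (not called without 0 dpa replicate 2 or 9 dpa replicate 2, at 0.61 to 0.67), mgp by 0.84 (not called without 0 dpa replicate 1 or 2 or 9 dpa replicate 1 or 2, at 0.66 to 1.03) and tpm2 by 0.79 (not called without 0 dpa replicate 2 or 9 dpa replicate 1 or 2, at 0.73 to 0.79). This list turned with the 0 dpa library, with 4 higher and 0 lower when replicate 1 was left out and 0 higher and 3 lower when replicate 2 was. What part a change in tissue makeup had in these values was not tested. None of the 10 most abundant members was called, and 0 of them had an unadjusted P under 0.05.

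The 9 dpa libraries were also set against those of 6 dpa. Of the 9012 members, 0 passed limma's test with the adjusted p, 282 had an unadjusted P under 0.05 and 450.6 would with no change. Of the 1129 calls between 9 and 0 dpa, 83 also differed between 9 and 6 dpa by P and fold. The gene with the smallest P was fkbp5, a chaperone of steroid receptors that glucocorticoids induce, at 590 and 432 FPKM at 0 dpa, 39.9 and 45.7 at 6 dpa and, at 9 dpa, 377 and 385 (log2 difference between 9 and 6 dpa 3.13, SE 0.30, adjusted p = 0.0729). Klf9, another glucocorticoid-induced gene, was at 55.4 and 52.0 FPKM at 0 dpa, 6.44 and 12.8 at 6 dpa and, at 9 dpa, 46.5 and 60.2. Both were low at 6 dpa alone, as was nr1d2a among the clock genes, and none of the 3 was called between 9 and 0 dpa.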

How the data were processed

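Paired-end RNA-seq reads (TruSeq RNA kit) were aligned to danRer10 with STAR, per the study's methods, and the authors deposited 1 table of FPKM values per gene symbol, made with Cufflinks (the labels name Cuffdiff). The versions of these tools, and whether counting used strand, are not given in the sources used here, so antisense or overlapping genes cannot be told apart. FPKM are not counts, so limma (version 3.58.1, R 4.3.3; lmFit and eBayes with trend) was fitted to log2(FPKM + 1) of the 6 RNA libraries, and 9 dpa was contrasted with 0 dpa. The 3 criteria were the study's. Adjusted p-values are Benjamini-Hochberg values over the 9012 members. The limma fit was tested on simulated data in R, and the lists, counts and figures were made in Python 3.11.15.

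The low values of the table did not fall on whole reads, so the depth behind a value is unknown and no counting interval was computed. Members and gene lists were chosen with earlier results of these data known. Lists overlap in part. Genes were named by this rule: up to 15 genes a direction by size of change among those with an adjusted p under 0.05, filled to 12 by unadjusted P, the up to 4 called members of each list with the smallest P and its most abundant member, the 10 most abundant members, krt5 and bmp4. Not every gene the rule gave is printed, and the genes named beyond it, such as tg, cirbpb, pygl or cdkn1d, were chosen after their values were seen. Near-identical genes (hsp70, hsp90aa1 and haemoglobin copies) may share reads. No sequence and no genome position is given. Alternatives were another pseudocount, other FPKM minimums, 2 other scalings, a fit of the 0 and 9 dpa libraries alone, no trend, a replicate block, an exclusion over 4 libraries, and leaving out each library. The histone mark data were not used here.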

Additional observations from a re-analysis of the deposited data

How the results depend on the processing

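The 1129 calls numbered between 583 and 1870 when each of the 6 libraries was left out in turn, 583 without 9 dpa replicate 2 and 1870 without 0 dpa replicate 1. The 31 calls with the adjusted p numbered between 0 and 202, with 202 without 0 dpa replicate 1, 17 without 0 dpa replicate 2, 13 without 6 dpa replicate 2 and 0 in limma's test without 6 dpa replicate 1, 9 dpa replicate 1 or 9 dpa replicate 2, where 898, 722 and 583 genes had an unadjusted P under 0.05. They numbered 20 after rescaling without haemoglobin, 14 with the 0 and 9 dpa libraries alone, and 0 with no FPKM minimum, where 13332 genes were tested and 1419 had an unadjusted P under 0.05. The cause was not tested. With the replicate number as a block 1212 genes were called, 2 of them with the adjusted p. Whether the replicate numbers pair the samples is not given in the sources used here. Across genes, the replicate differences of 0 and 9 dpa had r = 0.0903. For 0 and 6 dpa r was -0.0847, and for 6 and 9 dpa 0.00519. Such values cannot tell whether the samples were paired.

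Of the 224 called genes examined singly, 123 were called under all settings and without any 1 library, 316 values under an alternative no longer passed, and 0 changed sign. The median of 29 of 58 lists kept its sign under all settings. The libraries at 9 dpa, like those at 0 dpa, number 2, the depth behind an FPKM value is unknown, and a different amount of blood or leukocytes cannot be told apart from a change in expression in a cell.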
